A study of Rattus norvegicus with 12 samples.

Results

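The Enrichment contrast compared the nucleus accumbens shell of 3 rats kept in an enriched environment for 21 days of forced abstinence from cocaine (EE21D) with that of 3 rats kept in isolation for the same time (IC21D). It is described here for the transcripts that were measured well in all 6 animals, so that graded differences are reported and not transcripts missing from a library. A transcript was kept when it had 10 or more counts in each of the 6 rats. Of the 41064 Ensembl rat transcripts listed for every rat, 10952 met this rule, which is 26.7% of those listed and 38.3% of the 28622 with at least 1 count over all 12 rats of the study. Housing was not used in the rule, and the differences between the groups were therefore open to testing.

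All animals were adult male Sprague-Dawley rats that had self-administered cocaine, and both groups had the same light and tone cue test, without cocaine, right before the brain was taken. IC21D rats stayed alone in standard cages. EE21D rats were moved at the start of abstinence to large cages shared by 3 to 6 rats, with a running wheel, tubes, nesting material and toys that were changed regularly. The same 2 housing conditions ended after 1 day of abstinence in the other 6 rats (EE1D and IC1D). Which rats shared an enriched cage is not given in the labels, so animals of EE21D may have lived together. No group without cocaine was sequenced here, and each sample is a punch of tissue, so fewer cells of a type and less RNA per cell cannot be told apart.

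The accumbens shell is a part of the ventral striatum built mainly of GABAergic medium spiny neurons, with smaller numbers of interneurons and with glia. It receives dopamine from the ventral tegmental area and glutamate from the prefrontal cortex, amygdala and hippocampus, and it is known for its part in cue-driven drug seeking. Cocaine seeking after cues grows over weeks of withdrawal, and housing with companions, exercise and changing objects is known to reduce it in rats. The deposited counts carry Ensembl transcript identifiers that the files do not pair with gene names. Transcripts are therefore named below by identifier or by rank, and marker genes of the accumbens and its cell types, gene lists and sequences were not analysed here.

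Of the 30112 transcripts left out, 13999 had no count in any of the 6 rats, 14316 had no count in some of them, and 1797 were counted in every rat but fell under 10 in at least 1. The boundary was thinly populated, with 113 transcripts whose lowest count was exactly 10 and 130 whose lowest count was 9. One rat decided much of the list. For 3426 transcripts only a single rat was under 10 counts, and in 2796 of these it was IC21D rat A24, which had no count at all for 2466 of them. Without that rat the rule would keep 13748 transcripts. The transcripts of Camk2d and Eif4e2 that the study names by identifier were not among the 10952, because all 3 IC21D rats had 0 counts for both.

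The total count of a rat was 21632038 to 26975339 in EE21D and 16698916 to 25671717 in IC21D, and the 10952 transcripts held 95.7% to 99.1% of each total. The 8 transcripts with the most counts took 54.3% to 61.3% of the counts in EE21D, 55.8% in IC21D rat A9 and 63.3% in IC21D rat A3. In IC21D rat A24 they took 75.6% (95% Wilson interval 75.55% to 75.59%, for counting error alone), and 4714969 counts remained there for all other transcripts. No pair among the 6 libraries was identical.

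Across the 10952 transcripts the rats differed among themselves about as much as the groups did. Levels are given in CPM, the count of a transcript relative to the size of its library after TMM scaling had corrected that size for composition. The median absolute log2 difference between a pair of rats was 0.27 for EE21D rats A13 and A1, and 0.61 for IC21D rats A9 and A24. Between an enriched and an isolated rat it ran from 0.28 (A13 and A3) to 0.60 (A14 and A24), so the enriched rat A13 was closer to the isolated rat A3 than to its own group member A14, at 0.42. The isolated group was the more variable. Its median SD of log2 CPM was 0.45 against 0.30 in EE21D (n = 3 rats each), and its SD was the larger one for 7293 transcripts, or 66.6%. The median absolute difference between the group means was 0.26, below both of these SDs.

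The middle 50% of each library's deviations from the 6-rat mean spanned 0.78 log2 units in IC21D rat A24 and 0.67 in EE21D rat A14. In the other 4 rats this span was 0.37 (A1), 0.39 (A13), 0.55 (A3) and 0.59 (A9). Rat A24 was the lowest or the highest of the 6 rats for 52.1% of the transcripts and rat A14 for 42.8%, with 36.5% for A9, 34.4% for A3, 17.4% for A13 and 16.7% for A1. Rat A24 thus deviated most of all 6 rats. Rat A14 deviated most of the enriched rats, by not much more than the isolated rats A9 and A3.

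**Figure D1:**
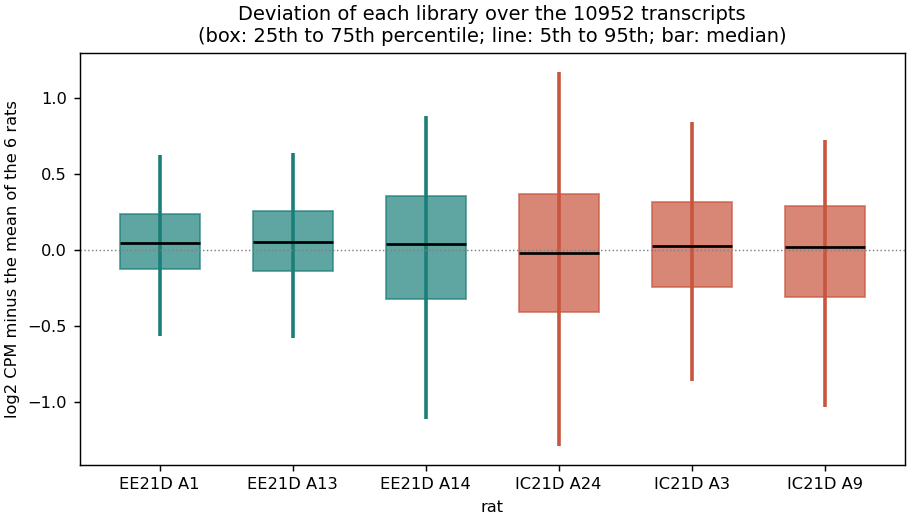
Deviation of each of the 6 libraries from the mean of the 6 rats over the 10952 transcripts, in log2 CPM, with the median as a bar, the 25th to 75th percentile as a box and the 5th to 95th as a line. The boxes of EE21D rats A1 (0.37 wide) and A13 (0.39) are the shortest and that of IC21D rat A24 (0.78) is the longest.

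The fitted differences between enriched and isolated rats at 21 days were small for most transcripts. The log2 fold change of EE21D over IC21D had a median of 0.016 over the 10952 transcripts, against 0.10 over all transcripts tested, and 90% of the values lay between -0.78 and 0.71 (5th and 95th percentile). The median absolute log2 fold change was 0.25, with a median standard error of 0.40. For 9164 transcripts, 83.7%, the fitted difference was under 1.5-fold.

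Differences of 2-fold or more were fitted for 537 transcripts, or 4.90%, where 32.5% of all transcripts tested were past that fold. The rule itself leaves out the transcripts at 0 in a rat, for which very large folds are fitted. Here and below, the first of a pair of percentages is the share of the 10952 transcripts and the next the share of all transcripts tested that met the same rule. Of the 537, 230 were higher in EE21D (2.1%, against 21.4% of all tested) and 307 were lower (2.8%, against 11.1% of all tested). At 4-fold or more 13 transcripts were higher and 59 lower, and the same count over all transcripts tested was not made. The rule left out 2796 transcripts for IC21D rat A24 alone, against 71 to 128 for any single EE21D rat. What this does to the balance of higher and lower transcripts was not tested. In 197 of the 537 the 3 enriched and the 3 isolated rats did not overlap, which is 1.8% of the 10952 transcripts, against 4.67% of all transcripts tested that were past 2-fold without overlap.

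No transcript passed an adjusted p-value under 0.05 in the Enrichment contrast by edgeR's quasi-likelihood test with Benjamini-Hochberg adjustment over all 28622 transcripts tested. The smallest adjusted p-value in this test was 0.968 among the 10952, and none of the 28622 passed (0% of all tested). At an unadjusted p of at most 0.05 the test gave 276 of the 10952, or 2.52%, against 3.33% of all transcripts tested. Of these, 175 were higher in EE21D (1.6%, against 2.25% of all tested) and 101 were lower (0.922%, against 1.08% of all tested). That lean to the higher side depended on the scaling. It was 63.4% of 276 with TMM and 28.5% of 284 with upper-quartile scaling, under which the median log2 fold change of the 10952 transcripts was -0.13.

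**Figure D2:**
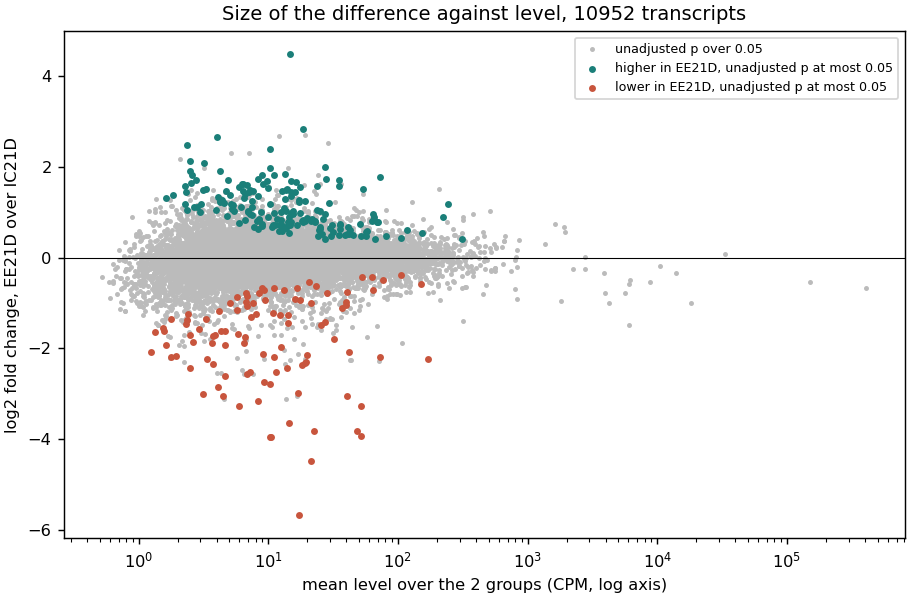
Log2 fold change of EE21D over IC21D (vertical axis) against the mean level over the 6 rats in CPM (horizontal log axis) for the 10952 transcripts. The cloud is centred at 0.016, and the coloured points are the 175 transcripts higher and the 101 lower in EE21D at an unadjusted p of at most 0.05, none of which passed the adjusted threshold.

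DESeq2's Wald test on the same counts, the program used in the study, gave 22 transcripts with an adjusted p-value under 0.05, or 0.201% of the 10952, against 0.531% of all transcripts tested. In this test 7 were higher in EE21D (0.0639%, against 0.356% of all tested) and 15 were lower (0.137%, against 0.175% of all tested). All 22 had an unadjusted edgeR p of at most 0.05, and in 20 of them the enriched and the isolated rats did not overlap. Both rest on the same counts as the DESeq2 test and so add no support. The same shares were not counted for the DESeq2 calls over all transcripts tested. DESeq2 gave no adjusted p-value for 23 of the transcripts. DESeq2 had 433 at an unadjusted p of at most 0.05 (3.95%, against 4.2% of all tested), of which 244 were higher (2.23%, against 2.76% of all tested) and 189 lower (1.73%, against 1.44% of all tested). Limma's voom with a weight for each library called none of the 10952, against 0.0769% of all tested, with a smallest adjusted p-value of 0.107 among them. It gave 330 at an unadjusted p of at most 0.05 (3.01%, against 6.38% of all tested).

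A difference can also be described as limited in size. The 95% confidence interval of the edgeR fold change lay wholly within 2-fold in either direction for 4270 transcripts, or 39.0%. It lay within 4-fold for 9315, or 85.1%. For the remaining transcripts the interval extended past 4-fold. Over all 10952 transcripts it reached a median of 0.87 to either side of the fitted value on the log2 scale.

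Precision was higher at greater depth. When the 10952 transcripts were ordered by mean count and split into 4 equal groups of 2738, the median standard error fell from 0.57 in the lowest group, with mean counts of 11.5 to 120, to 0.26 in the highest, with mean counts of 654 and above. The median absolute log2 fold change fell alongside, from 0.35 through 0.27 and 0.23 to 0.18. The number of transcripts with an unadjusted p of at most 0.05 was 62, 80, 76 and 58 from the lowest group to the highest, so the 2 deeper groups held no more of them than the 2 shallower ones. Differences of 2-fold or more were most frequent among the least abundant transcripts, at 8.84%, and least frequent among the most abundant, at 1.90%.

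The enriched and the isolated rats did not overlap for 962 transcripts, or 8.78%, against 7.71% of all transcripts tested. Of these, 615 were higher in all 3 EE21D rats (5.62%, against 5.7% of all tested) and 347 were lower in all 3 (3.17%, against 2.01% of all tested). With upper-quartile scaling 27.6% of 1023 such transcripts were higher, where TMM gave 63.9% of 962, so this split too depended on the scaling. Most separations were narrow. The gap between the nearest rats of the 2 groups had a median of 0.11 on the log2 scale, it reached 1.5-fold in 48 transcripts and 2-fold in 19, of which 10 were higher and 9 lower. The rat lying farthest from the other group was A24 in 493 of the 962 on the isolated side and A14 in 593 on the enriched side.

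Among transcripts with separate groups it was more often IC21D than EE21D that also lay apart from the 1-day rats. All 3 IC21D rats lay outside the range of the other 9 rats of the study for 128 of the 10952 transcripts, or 1.17%, against 0.842% of all tested. In 80 of them IC21D was the lowest group (0.73%, against 0.59% of all tested) and in 48 the highest (0.438%, against 0.252% of all tested). EE21D rats lay outside the other 9 for 29 transcripts (0.265%, against 0.332% of all tested), 16 with EE21D highest (0.146%, against 0.262% of all tested) and 13 with EE21D lowest (0.119%, against 0.0699% of all tested). The corresponding numbers were 62 for EE1D (0.566%, against 0.528% of all tested) and 129 for IC1D (1.18%, against 0.709% of all tested), so IC21D was not alone in this. The differences between these numbers were not tested.

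The 10 transcripts higher in EE21D with the smallest p-values among those without overlap had fitted folds of 2.02 to 6.31 and unadjusted p-values of 0.00184 to 0.00610 by edgeR's quasi-likelihood test, with an adjusted p-value of 0.968 for all 10. The first was ENSRNOT00000091346, at 137 CPM in rat A13, 83.3 in A14 and 116 in A1 of EE21D, and at 52.7 in A9, 12.9 in A24 and 32.5 in A3 of IC21D. Every isolated rat lay well below every enriched rat. The group means were 112 ± 27.3 CPM in EE21D and 32.7 ± 19.9 in IC21D (SD, n = 3), and the log2 fold change was 1.78 with a standard error of 0.43. The exact two-sided permutation test gave p = 0.1, the smallest value that 3 rats against 3 allow. Groups that do not overlap always give this value, so for transcripts chosen by that rule, here and below, it adds no support. In the 1-day rats the level was 165, 108 and 113 CPM in EE1D and 89.4, 81.7 and 124 in IC1D, so that IC21D was below all other 9 rats. Without rat A24, the lowest of the 3 isolated rats, the log2 fold change was 1.40. DESeq2's adjusted p-value for this transcript was 0.0414, and over the alternatives its adjusted p-value ranged from 0.0414 to 1.

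The next was ENSRNOT00000064964, at 23.1 CPM in A13, 19.6 in A14 and 20.4 in A1 of EE21D and at 2.14 in A9, 9.40 in A24 and 6.09 in A3 of IC21D. The enriched rats lay close together, at 21.0 ± 1.87 CPM, and the isolated rats were lower and more spread, at 5.88 ± 3.63 CPM (SD, n = 3). The log2 fold change was 1.84 with a standard error of 0.46 (exact permutation p = 0.1), and without A24, here the highest isolated rat, it was 2.35. The 1-day levels were 17, 22.4 and 14.8 CPM in EE1D and 16.3, 19.4 and 11.5 in IC1D, again all above IC21D. DESeq2's adjusted p-value was 0.0265, with a range of 0.0265 to 1 over the alternatives.

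In 8 of the 10 higher transcripts all 3 IC21D rats were below the other 9 rats, and in none of the 10 were the EE21D rats above the other 9. Rat A24 was the lowest isolated rat in 5 of them and rat A14 the highest enriched rat in 7. The 2 exceptions were ranks 3 and 5, for which 1 or more 1-day rats were not above the highest IC21D rat. The transcript of rank 4 had 15.9, 28.0 and 17 CPM in EE21D and 7.02, 8.82 and 5.72 in IC21D, and at 1 day 10.6, 9.22 and 14.4 CPM in EE1D against 19.4, 36.1 and 13.1 in IC1D. There IC21D was below all 9 other rats, and at 1 day EE1D was the lower housing group (log2 fold change -1.01, standard error 0.40). DESeq2 called 6 of the 10.

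The 10 transcripts lower in EE21D, chosen the same way, had fitted folds of 1.63 to 15.6 and unadjusted p-values of 0.00181 to 0.00612, with an adjusted p-value of 0.968 by edgeR's quasi-likelihood test. The first was ENSRNOT00000080787, at 12.9 CPM in A13, 1.94 in A14 and 4.23 in A1 of EE21D, and at 29.1 in A9, 32.7 in A24 and 34.4 in A3 of IC21D. The isolated rats were alike, at 32.1 ± 2.69 CPM, and the enriched rats were all lower, at 6.36 ± 5.79 CPM (SD, n = 3). The log2 fold change was -2.33 with a standard error of 0.57 (exact permutation p = 0.1), and it was -2.32 without A24. The 1-day rats had 34.9, 17.5 and 30.9 CPM in EE1D and 32.7, 29.5 and 39.0 in IC1D, so here EE21D was the group below all other 9 rats. DESeq2's adjusted p-value was 0.0145, with a range of 0.0145 to 1 over the alternatives.

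The next was ENSRNOT00000083322, at 14.4 CPM in A13, 12.6 in A14 and 13 in A1 of EE21D and at 19.6 in A9, 57.4 in A24 and 35.5 in A3 of IC21D. The enriched rats were nearly the same, at 13.4 ± 0.948 CPM, while the isolated rats spread over a wide range, at 37.5 ± 19.0 CPM (SD, n = 3). The log2 fold change was -1.49 with a standard error of 0.37 (exact permutation p = 0.1) and it was -1.04 without A24, the highest isolated rat. In the 1-day rats EE1D had 23.4, 22.2 and 13 CPM and IC1D had 18.2, 15.7 and 15.3, and the enriched values there overlapped both 21-day groups. DESeq2's adjusted p-value was 0.0327, with a range of 0.0327 to 1 over the alternatives.

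In 3 of the 10 lower transcripts the EE21D rats were below the other 9, and in none were the IC21D rats above them. Rat A24 was the highest isolated rat in 8 of the 10, and rat A14 the lowest enriched rat in 5. The transcript of rank 5 had the largest fold of the 10, with 1.19, 1.14 and 1.40 CPM in EE21D and 1.56, 31.4 and 25.5 in IC21D (log2 fold change -3.97, standard error 1.05). Its separation rested on rats A24 and A3, since A9 was next to the enriched rats. DESeq2 called 9 of the 10. The part of rats A24 and A14 in these differences was not tested, beyond leaving each out in turn.

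**Figure D3:**
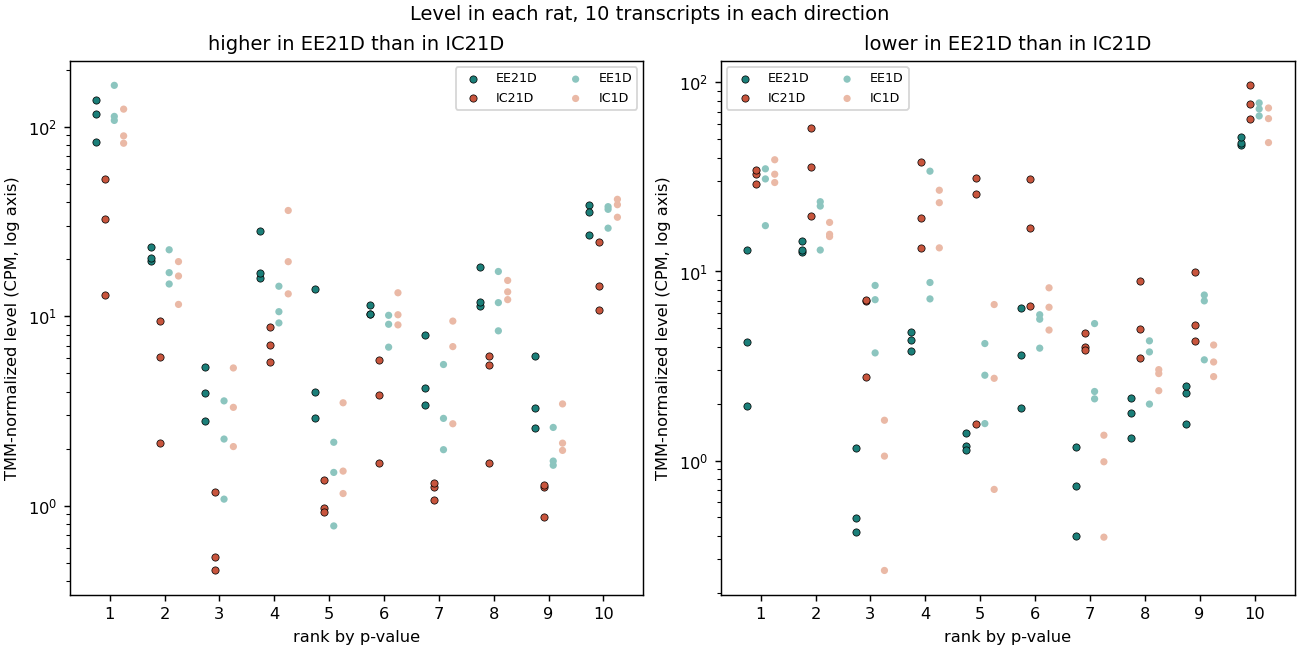
Level of the 10 higher (left) and the 10 lower transcripts (right), ranked by p-value, in each of the 12 rats, as CPM on a log axis, with 1 point per rat and colour giving the group. In 8 of the 10 higher transcripts the IC21D points lie below all others, and in 3 of the 10 lower transcripts the EE21D points do.

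Some of the largest folds were carried by 1 or 2 rats. The transcript with the largest fold higher in EE21D, log2 4.48 with a standard error of 1.39, had 27.2, 22.5 and 35.5 CPM in the enriched rats and 0.73, 1.01 and 2.03 in the isolated rats, with a gap that no other transcript of the 962 exceeded (3.47 on the log2 scale). The 1-day rats fell on both levels whatever their housing, at 26.2, 1.27 and 49.4 CPM in EE1D and 0.83, 50.7 and 37.8 in IC1D. Low and high levels thus both occurred within each 1-day group.

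The transcript with the largest fold lower in EE21D, log2 -5.67 with a standard error of 1.13, had the smallest unadjusted p of the 10952 (0.000405), yet its groups overlapped. It stood at 0.60, 0.84 and 0.54 CPM in the enriched rats and at 0.83, 50.7 and 50.1 in the isolated rats, with 0.57 to 1.24 CPM in all 6 rats of the 1-day groups. Only A24 and A3 were high among the 12 rats. DESeq2's adjusted p-value was 3.20e-06 (range over the alternatives 3.20e-06 to 1). The transcript with the second largest fold in this direction, log2 -4.49 with a standard error of 1.59, was high in a single rat, with 120 CPM in A24 against 0.83 to 2.51 in the other 5, and without A24 its sign turned to 0.98.

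The group values of the most abundant transcripts overlapped. The transcript with the most counts took 31.8% to 48.4% of each library, and its log2 fold change was -0.68 with a standard error of 0.49 (unadjusted p = 0.197 by edgeR's quasi-likelihood test). The next had 10.1% to 17.9% of the counts and a log2 fold change of -0.53 with a standard error of 0.39. The third had 2.49% to 4.63% and a log2 fold change of 0.070 with a standard error of 0.28. Without A24 the first came to -0.21 and the next to 0.011.

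Housing was compared in the same transcripts at 1 day, in 6 other rats. No transcript passed the adjusted threshold in EE1D over IC1D (0% of all tested, smallest adjusted p-value 0.465 by edgeR's quasi-likelihood test), 319 had an unadjusted p of at most 0.05 (2.91%, against 2.75% of all tested), and DESeq2 called 23 (0.21%, against 0.447% of all tested), 10 higher (0.0913%, against 0.15% of all tested) and 13 lower (0.119%, against 0.297% of all tested), with 502 at an unadjusted p of at most 0.05 (4.58%, against 3.43% of all tested). With TMM scaling the 1-day differences leaned to the lower side, with 79 higher (0.721%, against 0.95% of all tested) and 240 lower in the enriched rats (2.19%, against 1.8% of all tested), and other scalings were not applied to this count. The groups did not overlap for 1178 transcripts at 1 day (10.8%, against 8.08% of all tested), 443 of them higher in EE1D (4.04%, against 3.45% of all tested) and 735 lower (6.71%, against 4.63% of all tested).

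Fold changes had the same sign at 21 days and at 1 day for 4340 of the 10952 transcripts, or 39.6%, although the 2 times share no rat. Of the 276 transcripts with an unadjusted p of at most 0.05 at 21 days, 78 had the same sign at 1 day (28.3%) and 198 the opposite sign. In 23 transcripts the unadjusted p was at most 0.05 at both times, and 20 of these had opposite signs. Of the 962 transcripts with separate groups at 21 days, 40 were also separate at 1 day in the same direction and 69 in the opposite direction. The same counts over all transcripts tested were not made. Single rats moved these shares. Without EE21D rat A14 the share with the same sign over all 10952 transcripts was 46.5%, without IC1D rat A20 it was 45.2%, and without EE21D rat A13 it was 37.4%. Over the transcripts with an unadjusted p of at most 0.05 at 21 days it was 16.8% without EE21D rat A13 and 39.1% without IC1D rat A20. Levels of transcripts move together within a rat, so these shares have far fewer independent values behind them than transcripts, and no test was made of them.

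The difference between the 2 housing effects was tested as the housing by abstinence interaction. No transcript passed the adjusted threshold in edgeR's quasi-likelihood test (0% of all tested, smallest adjusted p-value 0.900). At an unadjusted p of at most 0.05 it gave 476 transcripts, or 4.35%, against 5.15% of all tested. In 345 the signed log2 fold change of enriched over isolated was more positive at 21 days than at 1 day (3.15%, against 3.65% of all tested). In 131 it was more negative at 21 days (1.2%, against 1.5% of all tested). This split is by sign and does not say at which time the housing difference was the bigger one. Other scalings were not applied to the split. DESeq2 gave 29 with an adjusted p-value under 0.05 (0.265%, against 0.727% of all tested), 11 more positive at 21 days (0.1%, against 0.472% of all tested) and 18 more negative (0.164%, against 0.255% of all tested). At an unadjusted p of at most 0.05 it gave 696 (6.36%, against 5.27% of all tested), 403 more positive (3.68%, against 3.36% of all tested) and 293 more negative (2.68%, against 1.9% of all tested).

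The 3 transcripts with the smallest interaction p-values showed 2 kinds of pattern. The first had groups that overlapped at 21 days, at 9.55, 11.2 and 10.8 CPM in EE21D and 14.2, 0.92 and 7.34 in IC21D. The 0.92 CPM of IC21D rat A24 came from 11 counts. At 1 day the transcript had 13.5, 24.5 and 8.79 CPM in EE1D and 0.13, 0.18 and 0.054 in IC1D. Those IC1D levels came from only 3, 5 and 1 counts, so the size of the 1-day fold is uncertain. Its interaction of log2 -6.43 (standard error 1.16) thus came from the 1-day rats, and its 21-day log2 fold change was 0.48 with a standard error of 0.73. The next, which was also the lower transcript of rank 3, had 0.50, 0.42 and 1.16 CPM in EE21D against 7.02, 7.05 and 2.78 in IC21D, and 7.09, 8.43 and 3.71 in EE1D against 0.26, 1.06 and 1.63 in IC1D. Its groups were separate at both times in opposite directions, with log2 fold changes of -3.01 (standard error 0.75) at 21 days and 2.70 (0.74) at 1 day.

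The third was high in EE1D, at 22.3, 16 and 16.9 CPM against 1.83, 1.48 and 0.65 in IC1D, and at 21 days it was high in IC21D rats A24 and A3, at 29.0 and 24.2, but not in A9, at 1.32, with 1.92, 1.10 and 4.85 CPM in EE21D. The 21-day log2 fold change was -2.79 with a standard error of 0.92. The lower transcript of rank 7 also crossed between the times, from 2.32, 5.30 and 2.12 CPM in EE1D and 0.39, 0.98 and 1.36 in IC1D to 0.40, 1.18 and 0.74 in EE21D and 4.0, 4.70 and 3.86 in IC21D.

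All 10 higher and all 10 lower transcripts had an unadjusted interaction p of at most 0.05, which includes the 21-day difference that chose them. The 1-day rats were in the same fit and so affected the p-values that ranked these transcripts. Their signs are therefore not a fully independent check. At 1 day, 2 of the 10 higher transcripts had the same sign as at 21 days and 8 the opposite sign. Of the 10 lower transcripts, 4 had the same sign at both times. Only 1 of the higher and 2 of the lower had an unadjusted p of at most 0.05 at 1 day, and these 3 had the opposite sign.

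**Figure D4:**
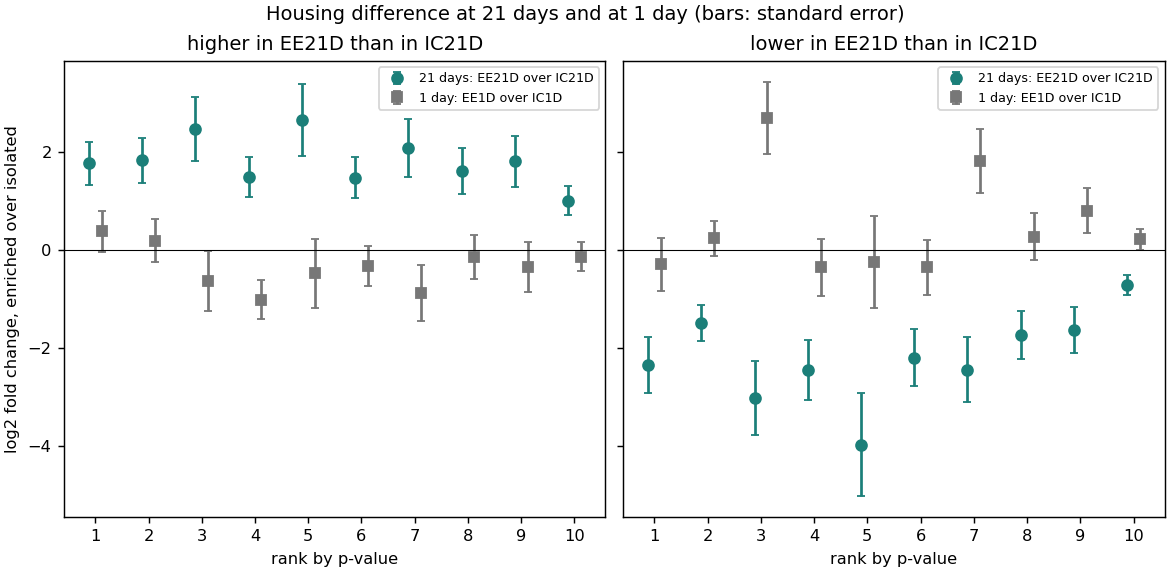
Log2 fold change of enriched over isolated rats at 21 days (circles) and at 1 day (squares) for the 10 higher (left) and 10 lower transcripts (right), with standard errors as bars. The 1-day values have the same sign as at 21 days in 2 of the 10 higher and 4 of the 10 lower transcripts. Those farthest from 0 have the opposite sign, at 2.70 and 1.83 for the lower transcripts of rank 3 and 7 and -1.01 for the higher transcript of rank 4.

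The transcripts with low p-values depended on which rats were in the fit. When 1 of the 6 rats was omitted, 104 to 615 transcripts had an unadjusted p of at most 0.05. Without EE21D rat A14 there were 104, of which 46 were higher and 58 lower, and 76 of the original 276 remained. Without IC21D rat A9 there were 615, with 367 higher and 248 lower, and 195 of the 276 remained.

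The other omissions lay between these. Without A24 there were 255 (184 higher and 71 lower) and 114 of the 276 remained, the fewest after A14, and 7 of the 276 turned sign. Without A13 there were 363, without A3 293 and without A1 178, and 199, 153 and 134 of the 276 remained. A transcript passed edgeR's adjusted threshold only without A9, where the transcript with the largest fold lower in EE21D had an adjusted p-value of 0.000337 by the quasi-likelihood test (range over its alternatives 3.20e-06 to 1). In that setting its remaining isolated rats, A24 and A3, were the 2 that were high. The count from DESeq2 ran from 13 without A14 to 187 without A9, and without A1 all 21 of its calls were lower in EE21D. For none of these omissions was the same count made over all transcripts tested, by edgeR or by DESeq2.

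**Figure D5:**
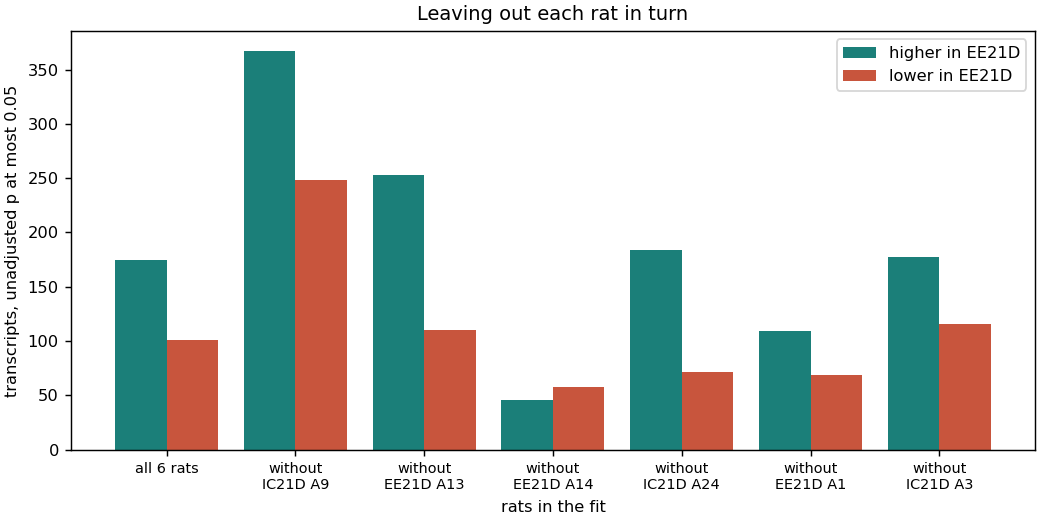
Number of the 10952 transcripts with an unadjusted p of at most 0.05, higher (green) and lower (red) in EE21D, with all 6 rats and with each rat left out. The total is 276 with all rats, 104 without EE21D rat A14, where the lower bar is the taller one, and 615 without IC21D rat A9.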

How the data were processed

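RNA from accumbens shell punches was sequenced in 12 rats, 3 for each group. The authors aligned reads with HISAT2 2.1.0, assembled and quantified transcripts with StringTie 1.3.3.1 against the Ensembl rat annotation, and deposited a whole-number count per transcript and rat, without normalization. How StringTie's coverage became whole counts is not given in the sources used here. Reads shared by isoforms or near-identical transcripts were divided by StringTie, so counts of single isoforms are uncertain. Which rats shared an enriched cage and which libraries were made together are not given in the sources used here.

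The quasi-likelihood test of edgeR 4.0.16 in R 4.3.3 was fitted with TMM scaling to the 28622 transcripts that had any count among the 12 rats, with Benjamini-Hochberg adjustment and a threshold of 0.05. The model had 1 coefficient for each of the 4 groups, and EE21D over IC21D, EE1D over IC1D and their difference were contrasts of it. P-values were adjusted over all 28622, and the 10952 transcripts were then read out. A standard error is the size of the log2 fold change over the root of its F statistic, and 95% intervals follow from it. DESeq2 1.42.0 and limma 3.58.1 (voom with sample weights) were run as alternatives, together with other scalings, filters and count minimums, a fit of the 6 rats alone, and leaving out each rat. The scripts were tested on simulated counts.

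Named transcripts are, by rule, the 10 higher and 10 lower with the smallest p-values among those without overlap, the 3 largest folds in each direction, the 3 smallest interaction p-values, the 3 with the most counts, and those the study names by identifier. The lower transcript of rank 5 is also the third largest fold, and the lower transcript of rank 3 also has the second smallest interaction p-value. The transcripts and rules were chosen with earlier results of these data known. Lists of cell type markers and pathways were drawn up but could not be used without gene names.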

Additional observations from a re-analysis of the deposited data

How the results depend on the processing

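No paired analysis was possible because the labels give no replicate numbers shared between the groups. Across the alternatives, the number of transcripts with an adjusted p-value under 0.05 was 0 except with DESeq2 (22) and, when each rat was left out, 0 to 1. The number with an unadjusted p of at most 0.05 (276) was 433 with DESeq2, 174 with only the 6 rats in the fit, 108 with a minimum of 100 counts and 104 to 615 with each rat left out. The percentage of these that were higher (63.4%) was 28.5% with upper-quartile scaling and 44.2% to 72.2% with a rat left out. The median log2 fold change (0.016) was -0.13 with upper-quartile scaling. The number with separate groups (962) was 463 with a minimum of 100 counts and 1510 to 2947 with a rat left out, where 2 rats face 3, and 27.6% of them were higher with upper-quartile scaling. The interaction count (476) ran from 214 to 776 with a rat left out. None of these counts with a rat left out was made over all transcripts tested. The rule itself kept 5681 transcripts at a minimum of 100 counts, so the counts given for that minimum are out of 5681 and not 10952. Alternatives added after seeing the data were the rule without A24, the setting apart of IC21D without A24, DESeq2 with each rat left out (13 to 187 calls) and the sign at both times with each of the 12 rats left out (16.8% to 39.1% of those with low p-values, main value 28.3%) or with other scalings (35.6% with upper-quartile, 32.7% with RLE). Without A24, the IC21D rats lay outside the 9 rats of the other groups for 379 of the 10952 transcripts (3.46%, against 2.66% of all tested). They were highest in 171 (1.56%, against 1.51% of all tested) and lowest in 208 (1.9%, against 1.16% of all tested). Here 2 rats face 9, which separate more easily than 3 against 9, so the 379 cannot be set beside the 128 with all 3 IC21D rats. The 10 higher and 10 lower transcripts kept their sign in all 14 alternatives. They had been chosen for groups that do not overlap, so leaving out a rat could hardly turn the sign, and this adds no support. Of the other named transcripts, the second largest fold lower turned sign with voom (0.17) and ranged from -5.07 to 0.98 with a rat left out, and with a rat left out the first interaction transcript ran from -0.036 to 1.34, the second most abundant from -0.87 to 0.011 and the third most abundant from -0.11 to 0.25, which was -0.092 with upper-quartile scaling. The cause of these changes was not tested. With 3 rats per group the 95% interval of the fold change lay within 2-fold for 39.0% of the transcripts, which limits what the counts can show.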
